A study of Ovis aries with 9 samples.

Results

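The genes described here encode the axonemal dyneins, the motors that drive the beating of cilia and flagella, together with the factors that build them. Members were the rows whose symbol begins with DNAH, DNAI, DNAL, DNALI or DNAAF followed by a number, plus ZMYND10, LRRC6, SPAG1, CCDC103, CCDC114, CCDC151, TTC25, ARMC4 and HEATR2. There were 30 such rows among the 27174 rows of the count table, and 29 of them passed the filter on low counts that 16871 rows passed. Whole ovaries with ovulation points were measured by RNA-Seq in 9 ewes, with 1 library per ewe and 3 ewes per group. The Dorset ewes (D4, D5 and D6) were labelled wild type, and the Small Tail Han ewes carried either the homozygous FecB genotype BB (Han BB: W1, W2 and W4) or the genotype ++ (Han ++: W6, W7 and W8). All ewes had received a progestagen sponge and pregnant mare serum gonadotropin to synchronize estrus, and ovaries were collected once a spontaneous estrus had followed. The study's methods describe all ewes as adults of a narrow age range. Han BB and Dorset differ in breed and genotype, Han ++ and Dorset in breed, and Han BB and Han ++ in genotype within 1 breed.

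An axonemal dynein arm is built around large heavy chains with motor activity, to which intermediate and light chains are bound. Outer arms set the beat frequency and inner arms shape the beat, and a docking complex attaches the outer arms to the microtubule doublets. Arms are preassembled in the cytoplasm by dedicated factors before they are carried into the cilium. In the female tract motile cilia are best known from the oviduct epithelium, and sperm carry the same machinery in the flagellum. In RNA of a whole ovary, fewer cells of a type and less RNA per cell cannot be told apart.

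The libraries held 10803913 to 20992535 counted reads, and W8 and D4 held the fewest. A single gene, LOC101101865, took 14.9% of the reads of D4 and 7.69% of W8, against at most 3.79% in the other libraries where it ranked first. On the first principal component of all tested genes, which carried 41.1% of the variance, D6 (103) and W4 (102) lay together at one end although they belong to different groups, and the next library was W7 at 36.8. The other end was as far out, with D4 at -117, W8 at -77.1 and W2 at -51.7. Members at an unadjusted p below 0.05 are counted without W4 or D6 where leaving 1 out moved the count by over 1.5 times. The same holds for medians over all members and for fold changes named in the pairwise comparisons. Ranges of all-gene calls with 1 library left out are given at the end.

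The members were low to moderate in level and were read in every group. Values are CPM, that is read counts scaled to a common library size after TMM correction. The summed level of all members was 305, 320 and 651 CPM in D4, D5 and D6, 438, 332 and 1152 CPM in W1, W2 and W4, and 702, 687 and 513 CPM in W6, W7 and W8. The Han BB and Dorset sums each held 1 library well above its 2 group mates, and the Han ++ sums lay closer together. Gene levels are not compared with each other, since read counts rise with transcript length.

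**Figure D1:**
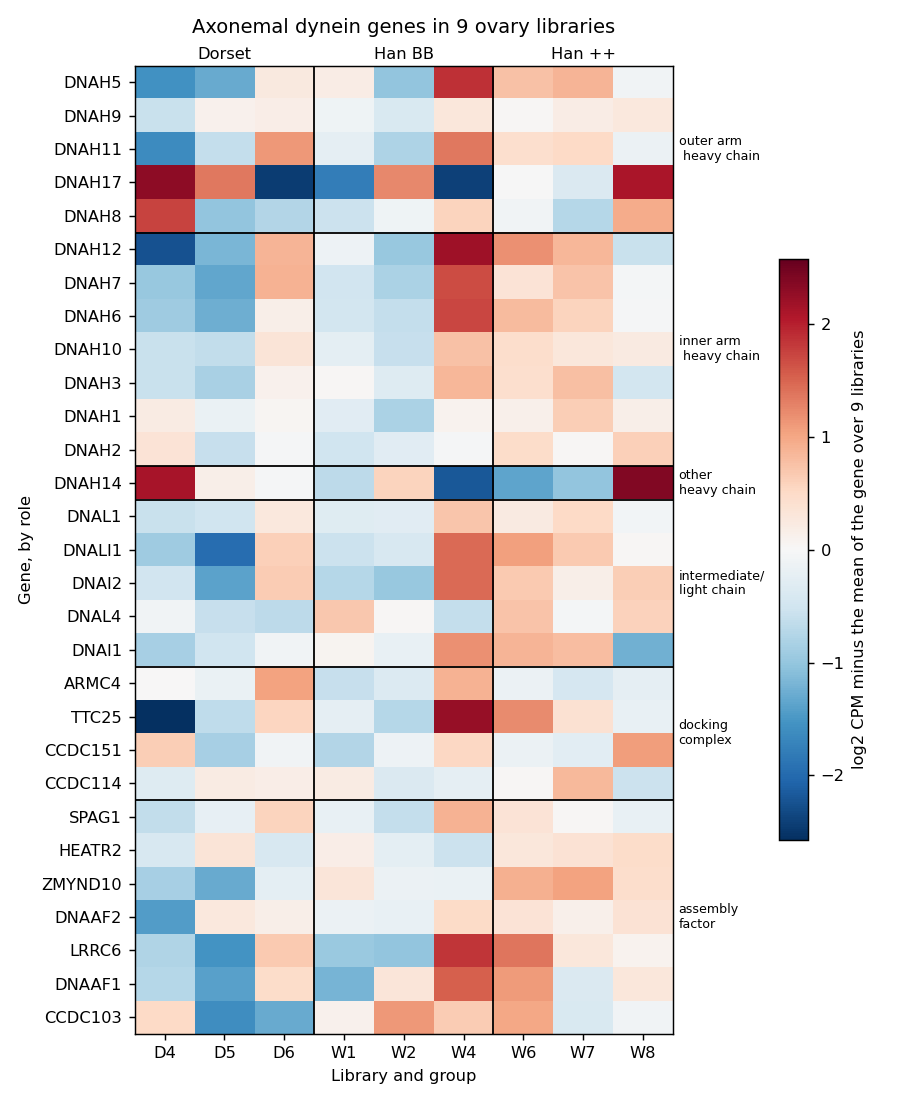
Level of the 29 tested axonemal dynein genes (rows, ordered by role) in the 9 libraries (columns, 3 per group), as log2 CPM minus the mean of that gene over the 9 libraries. W4 is the darkest red column for most heavy chains, D4 and D5 are mostly blue, and DNAH17 and DNAH14 show the opposite pattern, with D4 and W8 high.

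Among the outer arm heavy chains, DNAH5, the heavy chain whose loss is a well known cause of primary ciliary dyskinesia, varied widely between ewes. It had 29.6, 35.0 and 103 CPM in D4, D5 and D6, 99.2, 43.1 and 318 CPM in W1, W2 and W4, and 146, 159 and 81.5 CPM in W6, W7 and W8. W4 stood above every other library, D4 and D5 were the lowest, and the ranges of all 3 groups overlapped. The log2 fold change was 1.46 ± 0.69 (SE, n = 3 per group) for Han BB over Dorset and 1.21 ± 0.68 for Han ++ over Dorset, with edgeR adjusted p-values of 0.975 and 1. The first of these fell to 0.32 without W4 and was 2.28 without D6, and the second was 1.998 without D6 and 0.90 without D4.

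DNAH9, a heavy chain that forms outer arms together with DNAH5, was much steadier. It had 37.2, 60.0 and 62.7 CPM in D4, D5 and D6, 51.3, 42.1 and 67.6 CPM in W1, W2 and W4, and 56.9, 63.2 and 66.5 CPM in W6, W7 and W8. Its highest library exceeded its lowest by 1.82-fold, against 10.7-fold for DNAH5. The ratio of DNAH5 reads to DNAH9 reads in the same library, which carries no depth, was 0.583 in D5 and 0.796 in D4 and reached 4.70 in W4. It was 1.23 to 2.57 in the Han ++ libraries, 1.02 to 4.70 in the Han BB libraries and 0.583 to 1.64 in the Dorset libraries, so the groups overlapped.

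The other outer arm heavy chains did not share 1 pattern, and they were named after their values had been seen. DNAH11 ranged from 10.3 CPM in D4 to 81.8 CPM in W4. DNAH17 ran the other way, with 10.5 CPM in D4 and 9.12 CPM in W8 against 0.391 CPM in D6 and 0.401 CPM in W4. DNAH8 was highest in D4, at 9.73 CPM, and lowest in D5, at 1.44 CPM. D4 and W8 were the libraries with the fewest reads and the largest share of LOC101101865, and the part of that in these values was not tested.

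DNAH12, an inner arm heavy chain, had 5.45, 11.3 and 47.1 CPM in D4, D5 and D6, 23.6, 13.1 and 117 CPM in W1, W2 and W4, and 57.6, 46.6 and 17.2 CPM in W6, W7 and W8. W4 held 6.37 times the mean of W1 and W2, and D6 held 5.62 times the mean of D4 and D5. DNAH7, also of the inner arms, had 15.2, 11.9 and 55.6 CPM in the Dorset libraries, 21.2, 17.0 and 95.1 CPM in the Han BB libraries and 38.2, 49.9 and 28.9 CPM in the Han ++ libraries, each in the order of their names. The same 2 libraries, W4 and D6, led their groups. DNAH6, a further inner arm heavy chain, had 13.1, 10.3 and 27.4 CPM in the Dorset libraries, 17.8, 16.0 and 80.9 CPM in the Han BB libraries and 43.3, 36.8 and 24.1 CPM in the Han ++ libraries.

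DNAH1 and DNAH2, also heavy chains of the inner arms, did not follow W4 and D6 as closely. DNAH1 had 11.5, 8.83 and 10.3 CPM in D4, D5 and D6, 8.07, 5.67 and 10.6 CPM in W1, W2 and W4, and 10.9, 15.5 and 11.0 CPM in W6, W7 and W8. DNAH2 had 7.20, 3.79 and 5.53 CPM in the Dorset libraries, 3.99, 4.62 and 5.55 CPM in the Han BB libraries and 7.87, 5.79 and 8.66 CPM in the Han ++ libraries. For both genes every Han BB library lay below every Han ++ library, by a small margin. DNAH10 and DNAH3 ranged from 17.6 to 46.0 CPM and from 8.61 to 27.8 CPM, both lowest in D5 and highest in W4.

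DNAH14, a heavy chain not assigned to an arm here, had 7.98 CPM in D4 and 9.58 CPM in W8 and 0.401 to 2.73 CPM in the other 7 libraries. A second row for DNAH5, listed as DNAH5.1, held 7 reads in W6, 3 in W8 and 0 in the other libraries, and it was not tested.

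Of the smaller arm subunits, DNAL1, a light chain of the outer arm, had 16.8, 17.5 and 30.0 CPM in D4, D5 and D6, 20.2, 20.3 and 40.9 CPM in W1, W2 and W4, and 29.3, 35.7 and 23.9 CPM in W6, W7 and W8. DNALI1, a light intermediate chain of the inner arms, had 4.18, 2.03 and 12.0 CPM in the Dorset libraries, 5.36, 5.95 and 21.7 CPM in the Han BB libraries and 16.3, 12.6 and 8.11 CPM in the Han ++ libraries. Both genes had W4 and D6 as the highest libraries of their groups. DNAL4, another light chain, differed from them, with 7.01, 4.96 and 4.69 CPM in Dorset, 12.1, 7.64 and 4.88 CPM in Han BB and 12.5, 7.19 and 11.3 CPM in Han ++ libraries. For DNAL4, W4 was the lowest Han BB library and D6 the lowest Dorset library, and each Han ++ library exceeded each Dorset library. The intermediate chains DNAI1 and DNAI2 ranged from 1.93 CPM in W8 to 10.4 CPM in W4 and from 2.75 CPM in D5 to 19.7 CPM in W4.

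In the docking complex, TTC25 had 0.779, 2.93 and 6.76 CPM in D4, D5 and D6, 3.94, 2.80 and 22.0 CPM in W1, W2 and W4, and 10.7, 6.06 and 4.05 CPM in W6, W7 and W8. It had the widest span of the tested members, at 28.3-fold between W4 and D4, where it had 8 reads. ARMC4 had 23.6, 20.8 and 47.9 CPM in the Dorset libraries, 15.6, 18.3 and 43.6 CPM in the Han BB libraries and 21.1, 17.3 and 20.0 CPM in the Han ++ libraries. ARMC4 thus stood out in D6 and W4 alone and was even across the rest. CCDC151 ranged from 2.98 to 11.4 CPM and CCDC114 from 3.68 to 9.64 CPM.

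ZMYND10, which acts with LRRC6 in the cytoplasmic assembly of the arms, was the assembly factor, and the member, with the smallest unadjusted p in each of the pairwise comparisons. It had 6.52, 4.82 and 10.0 CPM in D4, D5 and D6, 14.7, 10.7 and 10.5 CPM in W1, W2 and W4, and 22.4, 24.3 and 16.2 CPM in W6, W7 and W8. The 3 groups did not overlap, with Dorset lowest, Han BB between and Han ++ highest, although D6 and W4 were close. SPAG1 had 17.4, 23.3 and 40.0 CPM in the Dorset libraries, 23.5, 17.6 and 50.0 CPM in the Han BB libraries and 34.1, 27.3 and 23.4 CPM in the Han ++ libraries. HEATR2 had 10.0, 16.6 and 9.94 CPM in Dorset, 15.0, 11.2 and 9.03 CPM in Han BB and 16.3, 17.2 and 18.4 CPM in Han ++ libraries. SPAG1 and HEATR2 are both needed for arm assembly, and W4 was the highest library for SPAG1 and the lowest for HEATR2. LRRC6 ranged from 2.25 CPM in D5 to 23.3 CPM in W4, DNAAF1 from 1.89 to 14.5 CPM in the same libraries, DNAAF2 from 3.11 to 11.8 CPM, and CCDC103 from 0.451 to 2.94 CPM.

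**Figure D2:**
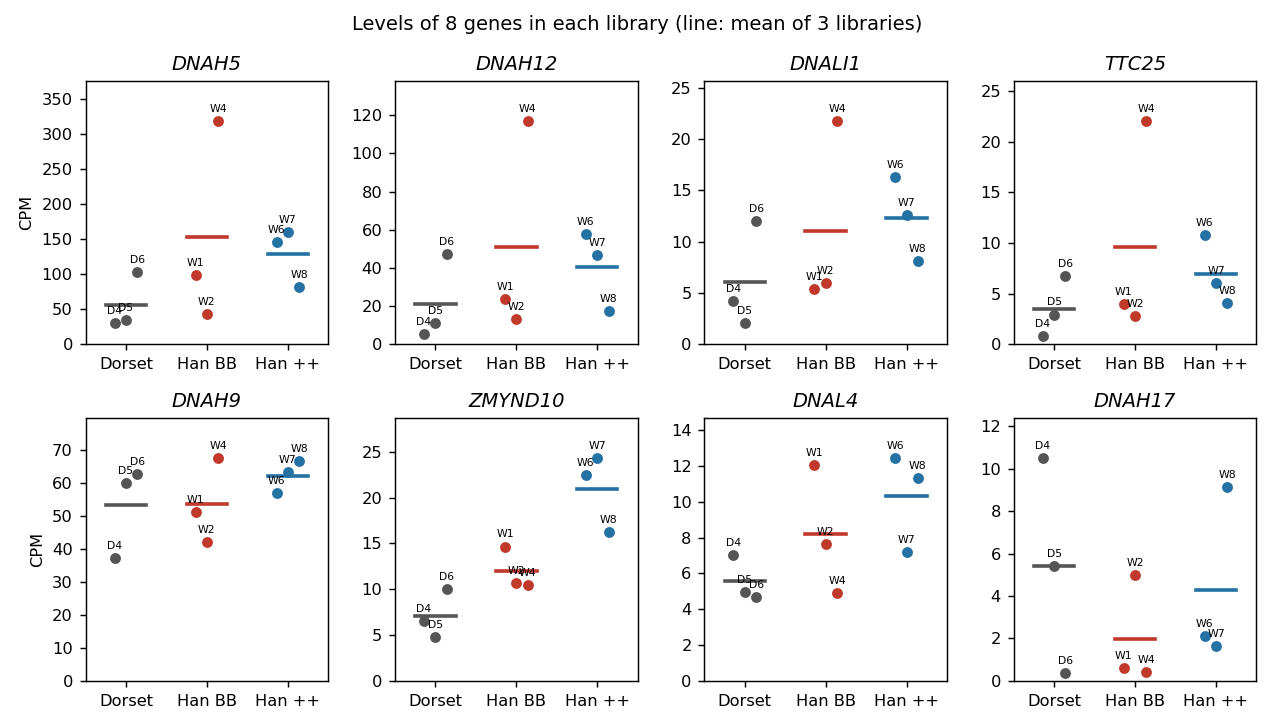
CPM of 8 genes in each library (points, named) with the mean of the 3 libraries of a group (line), on linear axes that start at 0. W4 is far above W1 and W2 for DNAH5, DNAH12, DNALI1 and TTC25, DNAH9 is even, ZMYND10 separates the groups, and DNAH17 is highest in D4 and W8.

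The first comparison asked how the prolific Han BB ewes differed from Dorset ewes. More members were higher than lower in Han BB, but none was called, where called means an adjusted p below 0.05 and a change over 1.5-fold in either direction in edgeR's quasi-likelihood test over all 16871 genes. Of all genes tested, 0% were called. By sign 20 of 29 members were higher and 9 lower, and 49.4% of all tested genes were higher. The members' median log2 fold change was 0.34 against -0.01 over all tested genes. At an unadjusted p below 0.05 stood 1 member, ZMYND10 (log2 fold change 0.75 ± 0.34, unadjusted and adjusted edgeR p-values of 0.0495 and 0.975), or 3.45%, against 4.99% of all genes. The groups did not overlap for that member alone, against 8.79% of all genes. The median rested on W4: without W4 it was -0.22, and without D6 it was 0.71, when 9 members reached an unadjusted p below 0.05. The share of all genes at that p without D6 was not computed, so that count has no base to be read against.

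The second comparison set Han ++ against Dorset, which differ in breed. Nearly all members were higher in Han ++ by sign, 25 of 29, with a median log2 fold change of 0.50 against -0.06 over all tested genes, of which 44.1% were higher. None was called by edgeR, against 0.00593% of all genes, which is 1 gene. At an unadjusted p below 0.05 were ZMYND10 (log2 fold change 1.56 ± 0.34, unadjusted and adjusted edgeR p-values of 0.000864 and 0.437) and DNAL4 (0.90 ± 0.40, 0.0464 and 0.943). These 2 members are 6.9%, against 5.27% of all genes. They were also the 2 members whose groups did not overlap, against 11.1% of all genes. DESeq2, run as an alternative, called ZMYND10 with an adjusted p of 0.0158 and called 0.448% of all genes, and edgeR's adjusted p for it ran from 0.241 to 1 as each library was left out. The median was 0.79 without D6, and its lowest value with 1 library left out was 0.37, without D5. Members at an unadjusted p below 0.05 were 8 without D6 and 4 without W4, and all-gene calls were 5 without W4. The share of all genes at that unadjusted p was not computed at these settings.

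By role, the 7 inner arm heavy chains, the 5 intermediate and light chains and the 7 assembly factors were all higher in Han ++ than in Dorset by sign, with medians of 0.55, 0.87 and 0.81. The 5 outer arm heavy chains had 3 higher and 2 lower, DNAH17 and DNAH8, with a median of 0.22. The docking complex had 3 of 4 higher, and ARMC4 was lower, at -0.66 ± 0.44. Beyond those already given, the log2 fold changes were 1.03 ± 0.61 for DNAH6, 1.02 ± 0.69 for DNALI1, 0.98 ± 0.85 for TTC25, 0.93 ± 0.88 for DNAH12 and 0.50 ± 0.70 for DNAH7. None of these passed at an unadjusted p below 0.05. Without D6 they were 1.58 for DNAH6, 2.03 for DNALI1, 1.85 for TTC25, 2.26 for DNAH12 and 1.54 for DNAH7, and ARMC4 was at -0.19. The lowest values with 1 library left out were 0.77 for DNAH6, 0.59 for DNALI1 and 0.12 for DNAH7, all without D5, 0.50 for TTC25 without W6, and 0.47 for DNAH12 without D4.

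The third comparison set the FecB genotypes against each other within the Han breed. Members were lower in Han BB by sign in 18 of 29 cases, while 53.4% of all tested genes were higher. The members' median log2 fold change was -0.14 against 0.04 over all tested genes. None was called, against 0% of all genes. Only ZMYND10 was at an unadjusted p below 0.05 (-0.81 ± 0.34, unadjusted and adjusted edgeR p-values of 0.0349 and 0.999), or 3.45% of members, against 1.97% of all genes. The groups did not overlap for 4 members, ZMYND10, DNAH1, DNAH2 and HEATR2, all lower in Han BB. They are 13.8%, against 9.38% of all genes in either direction, of which 775 were lower and 807 higher. DNAH1, DNAH2 and HEATR2 had log2 fold changes of -0.62 ± 0.32, -0.65 ± 0.36 and -0.56 ± 0.31 and unadjusted p-values of 0.0808, 0.0966 and 0.103, and that of DNAH1 was -0.41 without W7. The median was -0.74 without W4 and turned to 0.10 without W2 and 0.09 without W1. Without W4, 4 members were at an unadjusted p below 0.05, and the share of all genes at that setting was not computed.

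Comparing both Han groups together with Dorset also called no member, against 0% of all genes. There 24 of 29 members were higher by sign, with a median of 0.43 against -0.04 over all tested genes, of which 45.5% were higher. That median was 0.16 without W4 and 0.74 without D6, when 3 and 11 members reached an unadjusted p below 0.05. The share of all genes at these settings was not computed. In the fit of 9 libraries only ZMYND10 was at an unadjusted p below 0.05 (1.16 ± 0.31, unadjusted and adjusted edgeR p-values of 0.00323 and 0.509), against 6.12% of all genes. A test for any difference among the 3 groups put 1 of 29 members, or 3.45%, at an unadjusted p below 0.05, against 3.94% of all genes. The comparisons with Dorset share the Dorset libraries, so their values are not independent of each other.

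**Figure D3:**
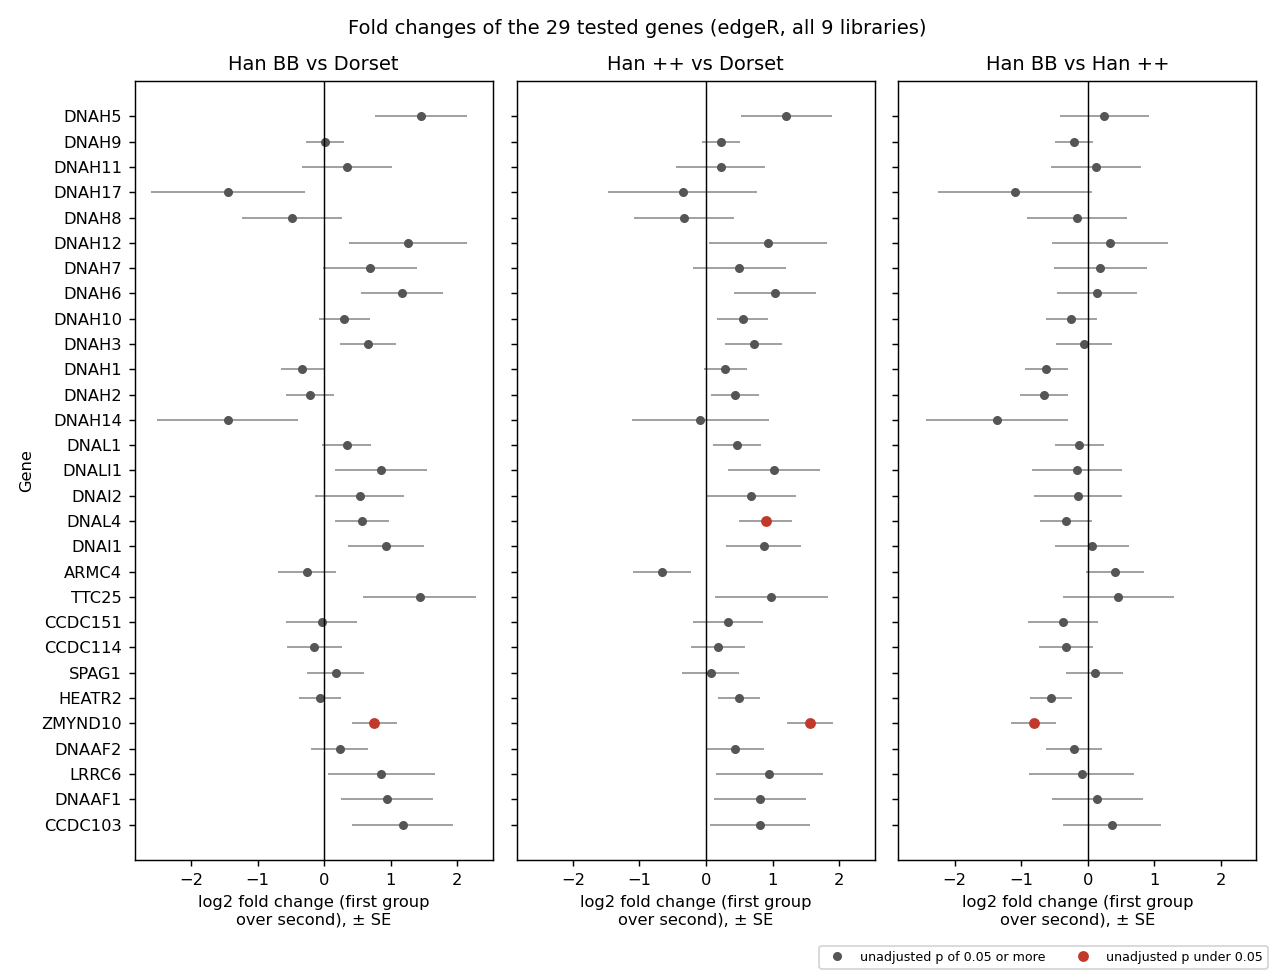
Log2 fold change (first named group over second, with SE) of the 29 tested members in 3 pairwise comparisons, fitted by edgeR to all 9 libraries. ZMYND10 is the member marked in red (unadjusted p below 0.05) in all 3 panels and DNAL4 in the middle one, and the widest error bars belong to DNAH17, DNAH14, DNAH12 and TTC25.

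The spread between ewes of the same group was larger for these genes than for most genes. The median within-group SD of log2 CPM was 0.82 over the 29 members and 0.54 over all tested genes, and 20 members lay above the latter. The biological coefficient of variation had a median of 0.496 in members and 0.383 in all tested genes. DNAH9 (SD 0.32), HEATR2 (0.33), DNAH1 (0.33) and ZMYND10 (0.39) were steady, whereas DNAH17 (1.95), DNAH14 (1.57) and DNAH12 (1.42) were not.

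Many members shared an order of the libraries, and the part of that order in the spread was not measured. W4 was the highest of the 9 libraries for 17 of 29 members, or 58.6%, against 21.3% of all tested genes. W4 exceeded both W1 and W2 for 22 members (75.9%, against 38.9% of all genes), D6 exceeded both D4 and D5 for 18 (62.1%, against 34.3%), and both held for 17 (58.6%, against 27.4%). D4 or D5 was the lowest library for 21 members, or 72.4%, against 33.2% of all genes. The largest excess of W4 over the mean of W1 and W2 was 7.08-fold in LRRC6, and 6.53-fold in TTC25. W4 was lower than that mean for DNAH17, DNAH14, DNAL4, HEATR2, ZMYND10, CCDC114 and CCDC103. These shares are descriptions, since genes of 1 library share its animal, depth and preparation.

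Leaving W4 and D6 out raised the number of members at an unadjusted p below 0.05. In Han ++ against Dorset without them, 14 of 29 members, or 48.3%, were at an unadjusted p below 0.05, all higher. The share of all genes was 8.87% in either direction, and no member was called. In Han BB against Han ++ the count was 9 members, or 31%, all lower, against 3.41% of all genes in either direction. By sign 28 of 29 members were lower there, and the share of all genes by sign is not given for it. In Han BB against Dorset the count was 2 members, or 6.9%, against 7.37% of all genes. When W4 and D6 were kept and a covariate set them apart from the other 7 libraries, the counts were 15, 11 and 7 members, or 51.7%, 37.9% and 24.1%, against 12.5%, 3.68% and 10.7% of all genes. W4 and D6 were picked for their values, members included: W4 led Han BB for 22 members and D6 led Dorset for 18. Leaving them out or setting them apart thus lowers those groups for these members by construction. The counts are not read as group differences.

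Under that covariate 4 members passed the call in Han ++ against Dorset, or 13.8%, against 0.462% of all genes. They were DNAH7 (log2 fold change 1.58, adjusted p = 0.0319), DNAH6 (1.74, adjusted p = 0.0367), DNAH5 (2.08, adjusted p = 0.0385) and DNALI1 (2.02, adjusted p = 0.0467), from edgeR. The 2 libraries were set apart because of their values in these data, members included, and no label divides them from the others. These calls are therefore no more than values under an alternative fit, and no member was called by edgeR when the same 2 libraries were left out.

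**Figure D4:**
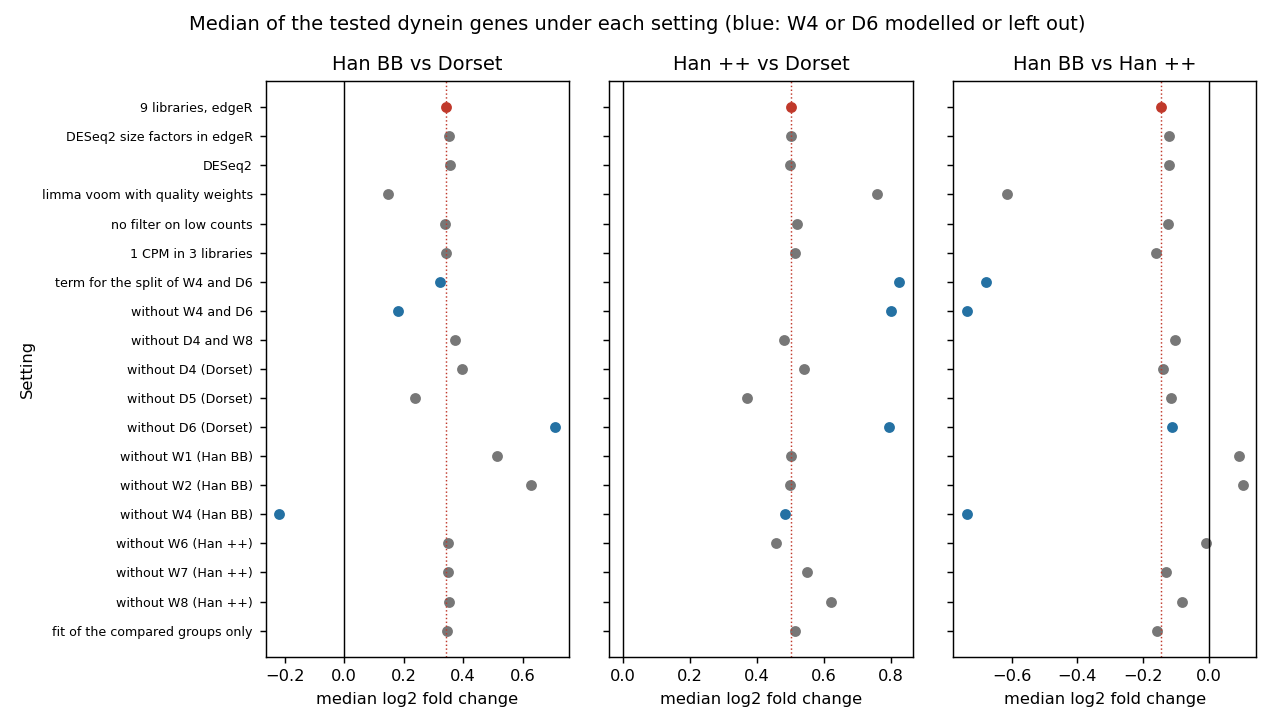
Median log2 fold change of the tested members (x axis) under each setting (y axis) in 3 pairwise comparisons, with the 9-library edgeR value in red and settings that model or leave out W4 or D6 in blue. Han ++ over Dorset stays above 0 in each setting, Han BB over Dorset falls to -0.22 without W4, and Han BB over Han ++ lies between -0.74 and 0.10.

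Other parts of the ciliary machinery were compared through lists that were chosen with earlier results known. In Han ++ against Dorset the 8 radial spoke genes had a median of 1.14 on the log2 scale. Of these 8 genes, 3 were at an unadjusted p below 0.05, all higher, against 5.27% of all genes in either direction. One of them, ROPN1L, was the only gene called in that comparison, at an edgeR adjusted p of 0.0446. No gene was called there when any 1 library other than W4 was left out. The 7 tested genes of the central apparatus and ruler had a median of 0.64 with 1 such gene, and the 6 of the nexin-dynein regulatory complex 1.00 with 2. Another 7 tested arm and assembly genes outside the naming rule had a median of 0.89 with 3. In Han BB against Dorset the medians of these 4 lists, in the same order, were 0.81, 0.95, 0.73 and 0.63. In Han BB against Han ++ they were -0.24, 0.03, -0.08 and 0.22. The 4 tested genes of the intraflagellar dynein-2 list had a median of 0.12, and 0 were at an unadjusted p below 0.05 in edgeR. In summed CPM, D6 and W4 were the highest libraries of their groups for each of these ciliary lists, as for most members. The dynein-2 list had 99.9, 189 and 285 CPM in D4, D5 and D6, and 166, 132 and 409 CPM in W1, W2 and W4. The 17 genes of cytoplasmic dynein and dynactin, which carry cargo along microtubules in all cells, had a median log2 value of -0.06, also with 0 at that threshold. The cytoplasmic set summed to 2087 to 2868 CPM in Dorset, 2279 to 2566 CPM across Han BB, and 2545 to 2856 CPM across Han ++ libraries. Single genes of the set were less even than the sum. DYNLT3 had 172 CPM in D6 and 204 CPM in W4, against 44.3 to 67.4 CPM elsewhere. DYNLRB1 ran the other way, with 20.3 CPM in D6 and 13.1 CPM in W4 against 39.3 to 90.3 CPM elsewhere.

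Markers of ciliated, oviduct and other epithelial cells were all higher by sign in Han ++ than in Dorset in the fit of 9 libraries. Within Dorset and Han BB, D6 and W4 led each epithelial sum below, but W4 was the lowest Han BB library for TPPP3 and FOXJ1. Of the 7 ciliated epithelium markers with a row, 4 were higher at an unadjusted p below 0.05 in Han ++ over Dorset, against 5.27% of all genes in either direction. All 7 summed to 87.4 to 160 CPM in Dorset, 166 to 257 CPM in Han BB and 267 to 354 CPM in Han ++ libraries. Those 3 ranges did not overlap, but TPPP3 alone gave 42.9 to 195 CPM of the sums, and without it the other 6 markers summed to 48.4, 44.5 and 108 CPM in D4, D5 and D6, 72.3, 53.0 and 190 CPM in W1, W2 and W4, and 158, 133 and 108 CPM in W6, W7 and W8, which overlapped. FOXJ1, the transcription factor of motile ciliogenesis, had 2.61 to 3.13 CPM in Dorset, 5.84, 3.36 and 2.88 CPM in W1, W2 and W4, and 8.32 to 11.2 CPM in Han ++. W4, the highest library for most dynein heavy chains, was thus the lowest Han BB library for FOXJ1. Summed over the 7 multiciliated cell regulators with a row, FOXJ1 among them, D6 and W4 led their groups. These sums were 15.8, 15.5 and 25.8 CPM in D4, D5 and D6, and 24.97, 16.4 and 53.4 CPM in W1, W2 and W4. MYB made up most of the W4 sum, at 41.7 CPM, and W4 did not lead Han BB for GMNC, CCNO or RFX2. Of the 6 tested regulators, 4 were higher and 2 lower by sign in Han ++ than in Dorset. The 5 oviduct secretory markers with a row summed to 510, 388 and 729 CPM in D4, D5 and D6. Their sums were 1025, 865 and 1141 CPM in W1, W2 and W4, and 1861, 799.7 and 1652 CPM in W6, W7 and W8. OVGP1, the oviduct-specific glycoprotein, made up most of this, with 371 to 718 CPM in Dorset, 838 to 1120 CPM in Han BB and 761 to 1824 CPM in Han ++. The 7 markers of ovarian surface and other epithelium summed to 228, 149 and 433 CPM in D4, D5 and D6, 288, 339 and 486 CPM in W1, W2 and W4, and 425, 416 and 473 CPM in W6, W7 and W8. Here too D6 and W4 led their groups as they did for most members, and EPCAM, an epithelial adhesion molecule, had 73.3 CPM in D6 and 128 CPM in W4. All 7 were higher in Han ++ than in Dorset by sign, and 2 were at an unadjusted p below 0.05, against the same 5.27% of all genes. The part of these cells in the members' values was not tested. Of the 3 sperm markers with a row, TNP1 and ODF1 were at 0 in D6, W1, W2, W4 and W7 and reached 2.14 and 0.779 CPM in D4, while AKAP4 had 34.4 to 75.8 CPM.

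**Figure D5:**
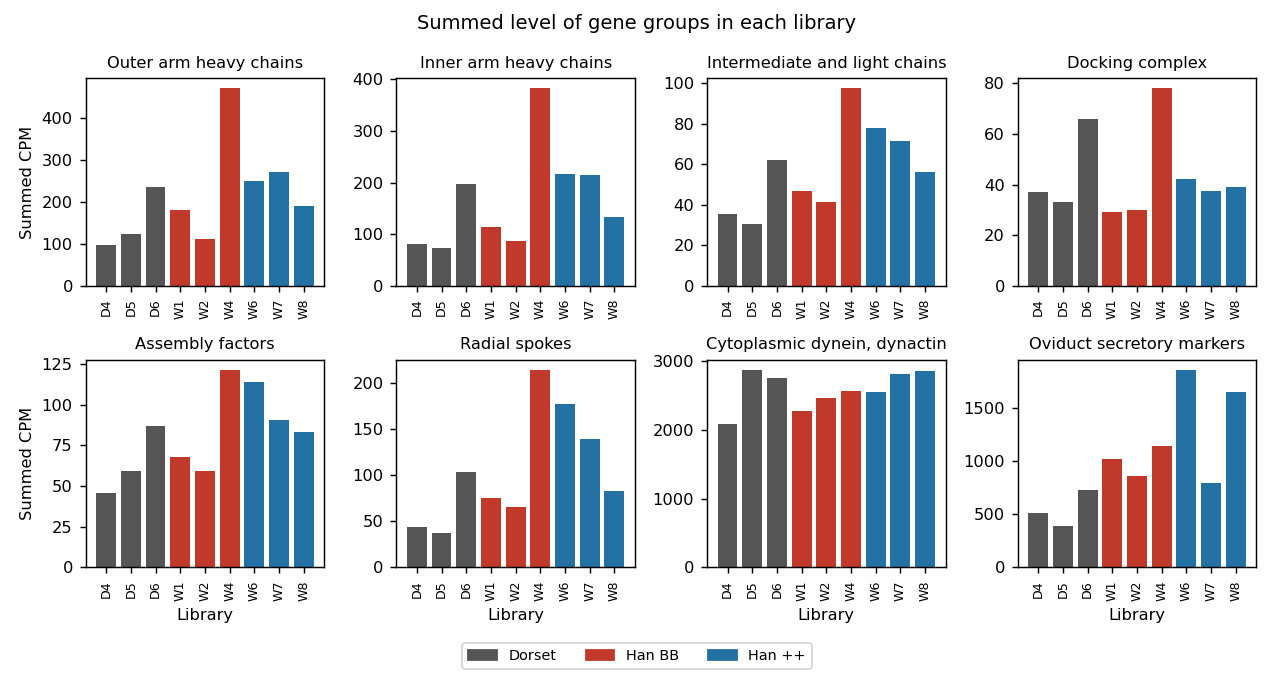
Summed CPM (y axis, from 0, different scale in each panel) of 8 gene groups in the 9 libraries, coloured by group. W4 is highest in the dynein arm, docking, assembly and radial spoke panels, the cytoplasmic dynein panel is even, and the oviduct secretory markers are highest in W6 and W8.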

How the data were processed

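The authors sequenced ovary RNA of 9 ewes, aligned the reads with TopHat to the sheep genome Oar_v3.1 and used uniquely mapped reads. No source used here names the counting program or its strand setting, so reads of a gene and an overlapping antisense gene could not be told apart, and the kit named in the methods differs from that in the labels. Values deposited are raw read counts per gene. From these, edgeR 4.0.16 (R 4.3.3) was fitted to all 9 libraries with TMM scaling, a filter on low counts by group and quasi-likelihood F-tests. P-values were adjusted by Benjamini and Hochberg over 16871 genes. DESeq2 1.42.0 and limma voom 3.58.1 with quality weights were alternatives. Those weights are estimated from these data and let each library count more or less, so that setting changes more than the test. Replicates are different ewes. Labels give no batch and no pairing. The edgeR steps were tried on simulated counts drawn independently for each gene. Such counts do not carry the order of libraries that many genes share here.

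Values in every library are given for the 2 members of each role with the most CPM and the 3 with the smallest p in each pairwise comparison. Members, lists and the alternatives on W4 and D6 were chosen with earlier results of these data known. Per-gene coordinates were not used here, and no sequences are shown.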

Additional observations from a re-analysis of the deposited data

How the results depend on the processing

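No paired analysis was possible because the replicate numbers only name samples in accession order and the labels pair no ewes. Counts are listed in the order Han BB over Dorset, Han ++ over Dorset, Han BB over Han ++, and both Han groups over Dorset. All-gene calls were 0, 1, 0 and 0 in edgeR. With DESeq2 they were 43, 74, 2 and 91, and members at an unadjusted p below 0.05 were 2, 2, 1 and 3. With voom and its library quality weights they were 0, 0, 2 and 0, and members at an unadjusted p below 0.05 were 1, 11, 9 and 5. With no filter they were 2, 11, 0 and 6, and members at an unadjusted p below 0.05 were 2, 2, 1 and 3. With a term for W4 and D6 they were 1, 78, 0 and 71, and members at an unadjusted p below 0.05 were 7, 15, 11 and 15. With W4 and D6 left out they were 2, 22, 0 and 6, and members at an unadjusted p below 0.05 were 2, 14, 9 and 10. With D4 and W8 left out, an alternative chosen after seeing the data, they were 0, 0, 0 and 0, and members at an unadjusted p below 0.05 were 1, 2, 1 and 2. In a fit of only the compared groups, all-gene calls in Han ++ against Dorset were 0, and members at an unadjusted p below 0.05 were 0 in Han BB and 4 in Han ++ against Dorset. Members called were 1 with DESeq2 and 4 with the term for W4 and D6 in Han ++ against Dorset. The members' median in Han BB against Han ++ was -0.68 with that term and -0.74 without W4 and D6. The sign of the log2 fold change turned with voom and quality weights in Han BB against Dorset for DNAH9 (-0.16) and SPAG1 (-0.14), and in Han BB against Han ++ for DNAH5 (-0.67), DNAH12 (-0.90), DNAH7 (-0.84), DNAH14 (0.23), ARMC4 (-0.14), TTC25 (-0.85), SPAG1 (-0.36) and DNAH6 (-0.90). With the term for W4 and D6 it turned in Han BB against Dorset for DNAH9 (-0.0047), and in Han BB against Han ++ for DNAH5 (-0.77), DNAH12 (-1.11), DNAH7 (-0.98), ARMC4 (-0.16), TTC25 (-0.88), SPAG1 (-0.41) and DNAH6 (-0.86). With W4 and D6 left out it turned in Han BB against Dorset for DNAH9 (-0.075), and in Han BB against Han ++ for DNAH5 (-0.87), DNAH12 (-1.16), DNAH7 (-1.04), ARMC4 (-0.21), TTC25 (-1.06), SPAG1 (-0.47) and DNAH6 (-1.05). With D4 and W8 left out it turned in Han BB against Dorset for DNAH9 (-0.23) and SPAG1 (-0.089), and in Han ++ against Dorset for DNAH9 (-0.033) and SPAG1 (-0.048), and in Han BB against Han ++ for DNAH5 (-0.020), DNAH12 (-0.049), DNAH7 (-0.017), DNAH14 (0.76), SPAG1 (-0.041) and DNAH6 (-0.092). With 1 library left out, in Han BB against Dorset, all-gene calls ran from 0 to 1, members at an unadjusted p below 0.05 ran from 0 to 9, the median ran from -0.22 to 0.71, and log2 fold changes ran in DNAH9 from -0.22 to 0.16, DNAH12 from -0.25 to 2.62, DNAH7 from -0.56 to 1.76, DNAL1 from -0.11 to 0.68, DNALI1 from -0.13 to 1.88, ARMC4 from -0.89 to 0.25, TTC25 from -0.099 to 2.33, SPAG1 from -0.42 to 0.59, HEATR2 from -0.28 to 0.24, DNAH6 from -0.029 to 1.74, DNAH2 from -0.41 to 0.017. With 1 library left out, in Han ++ against Dorset, all-gene calls ran from 0 to 5, members at an unadjusted p below 0.05 ran from 1 to 8, and log2 fold changes ran in DNAH14 from -2.19 to 0.93, SPAG1 from -0.17 to 0.47. With 1 library left out, in Han BB against Han ++, members at an unadjusted p below 0.05 ran from 0 to 4, the median ran from -0.74 to 0.10, and log2 fold changes ran in DNAH5 from -0.87 to 0.70, DNAH12 from -1.16 to 0.80, DNAH7 from -1.04 to 0.58, DNAH14 from -2.20 to 0.78, DNAL1 from -0.56 to 0.052, DNALI1 from -1.14 to 0.17, ARMC4 from -0.21 to 0.68, TTC25 from -1.06 to 0.95, SPAG1 from -0.47 to 0.39, DNAH6 from -1.05 to 0.51. With 1 library left out, in both Han groups against Dorset, all-gene calls ran from 0 to 4, members at an unadjusted p below 0.05 ran from 1 to 11. The cause of these changes was not tested. All-gene shares at an unadjusted p below 0.05 were taken only for the 9-library edgeR fit and the 2 settings on W4 and D6. Member counts at that p in the other settings have no such share beside them.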
